A study of Mus musculus with 45 samples.

Results

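Splenic B cells of wild type mice cultured with lipopolysaccharide (LPS) were compared between day 4 and day 7 of culture, using 3 libraries at each day, 6 of the 45 in the series. The comparison was chosen by culture, genotype and day, with no measured value in the choice, and covered every gene of the deposited table. The mice of both groups were labelled as wild type C57BL/6 females, 9 weeks old, and the labels call the cells plasmablasts at both days. The labels give the agent of this culture only as LPS, with no dose, feeder cells or cytokines. Which animal each replicate came from is not stated either, so p-values measure the spread between libraries, which may in part be technical. That spread was estimated within the groups of all 39 libraries in the fit, not from these 6 alone.

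Other groups served for comparison. Wild type TLR cultures held LPS, interleukins 4 and 5 and irradiated feeder cells that carry CD40L, and wild type BCR cultures held the same feeders and cytokines with antibody against surface IgM and IgG. Per the labels' protocols, cells of those systems were moved off the feeders at day 2 and given IL-6 and APRIL from day 4. Both, and the splenic B cells taken before culture (day 0), came from wild type C57BL/6 males, 7 weeks old, whereas the Prdm1 exon 1A deletion (dEx1A) LPS cultures came from C57BL/6 females, 9 weeks old. Any difference of the wild type LPS cultures from the TLR or BCR cultures or from day 0 cells therefore goes with sex and age, and these cannot be told apart. It also goes with library depth and with how the libraries represent GC-rich genes.

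LPS is recognised by Toll-like receptor 4, and it drives mouse B cells to divide and to become antibody-secreting cells without help from T cells. In that transition Irf4 and Blimp-1, the product of Prdm1, shut down the B cell programme held by Pax5, Bach2 and Bcl6, and Xbp1 enlarges the secretory apparatus. Class switching, which replaces the IgM constant region by that of another class, goes mostly to IgG3 and IgG2b in mouse B cells given LPS alone. Immediate early genes such as Egr1 and Fos are transcribed within minutes of a signal, without new protein synthesis.

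Values are on the log2 scale of the deposited table, where 3.04 stands for no reads and a difference of 1 is close to a doubling for genes well above it. Each difference below is day 7 minus day 4 on that scale, ± its standard error, with n = 3 libraries a day. The standard error also draws on the spread in the other groups of the 39-library fit. The test was limma, two-sided, and a gene passed where its p, adjusted by Benjamini-Hochberg over all 20279 genes tested, was below 0.05. Of these, 1711 (8.44%) passed: 965 (4.76%) were higher and 746 (3.68%) lower at day 7. Leaving out day 4 replicate 2 left 1022 calls and leaving out day 7 replicate 3 left 1076. Groups did not overlap for 937 of the higher calls (4.62% of genes) and 731 of the lower (3.6%). Whether called or not, the days did not overlap for 17.2% of genes with day 7 higher and 16.8% with day 7 lower. Among the calls 395 rose and 151 fell by more than 1 on the log2 scale. When libraries were scaled to their total reads, immunoglobulin included, 523 passed as higher and 2793 as lower, because that scaling moved the median of all genes to -0.26. In units of 1e6 reads assigned to genes, day 4 libraries held 15.51 to 19.44 and day 7 libraries 15.61 to 16.7. Summed over 25 mature B cell identity genes, the level was 160800 to 171230 normalised reads at day 4 and 183663 to 195310 at day 7. In day 0 B cells it was 346189 to 362605. None of the 25 was at 0 in either LPS group, which also held in the TLR, BCR, dEx1A LPS and day 0 groups.

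Reads from the immunoglobulin loci took 14.1 to 15.5% of each library at day 4 and 28 to 34.3% at day 7, with no overlap between days. The IgG constant region genes led the rise. Ighg1, on chromosome 12 (chr12:113325240-113330523, minus strand, GRCm38), read 10.28, 9.48 and 10 at day 4 and 15.12, 15.13 and 15.2 at day 7. Its difference of 5.23 ± 0.46 (limma adjusted p 9.25e-09) was the largest of the named genes. Ighg3, the constant region of the class that LPS alone favours, read 15.31, 15.14 and 15.24 and then 19.5, 19.26 and 19.45 (4.17 ± 0.39, adjusted p 2.34e-08). All 3 day 7 libraries lay far above all 3 day 4 libraries for both genes. Ighg2b rose by 3.85 ± 0.48 and Ighg2c by 3.82 ± 0.47. The IgG genes are alike in part of their sequence and can share some reads, so their separate values are uncertain.

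The other immunoglobulin genes moved less or the other way. Ighm, the mu heavy chain gene, read 20.44, 20.45 and 20.56 at day 4 and 21.15, 21.53 and 21.7 at day 7 (0.98 ± 0.30, adjusted p 0.0364). That call was lost in 10 of 17 alternative settings, with differences from 0 to 1.13 on the log2 scale. The 0 came with quantile normalisation, which gives genes of equal rank the same value in every library. It cannot measure a change in a gene that keeps its rank. The kappa constant gene Igkc rose by 1.48 ± 0.34. Igha, the IgA constant gene, read 7.35, 8.54 and 9.06 at day 4 and 5.93, 7.44 and 4.91 at day 7, so the days overlapped. It passed as lower (-2.22 ± 0.64, adjusted p 0.0243), and the call was lost in 6 of 17 alternatives. Ighd and Ighe differed by 0.04 and -0.12 and did not pass. Among all 12 constant region genes 6 passed as higher and 1 as lower, with a median of 0.84, against 4.76% higher and a median of 0 over all genes. Of the variable segments, 54 of 110 Ighv genes and 37 of 100 Igkv genes passed as higher and none as lower (medians 1.3 and 1.13). These segments are short and alike, so their separate levels are also uncertain.

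**Figure D1:**
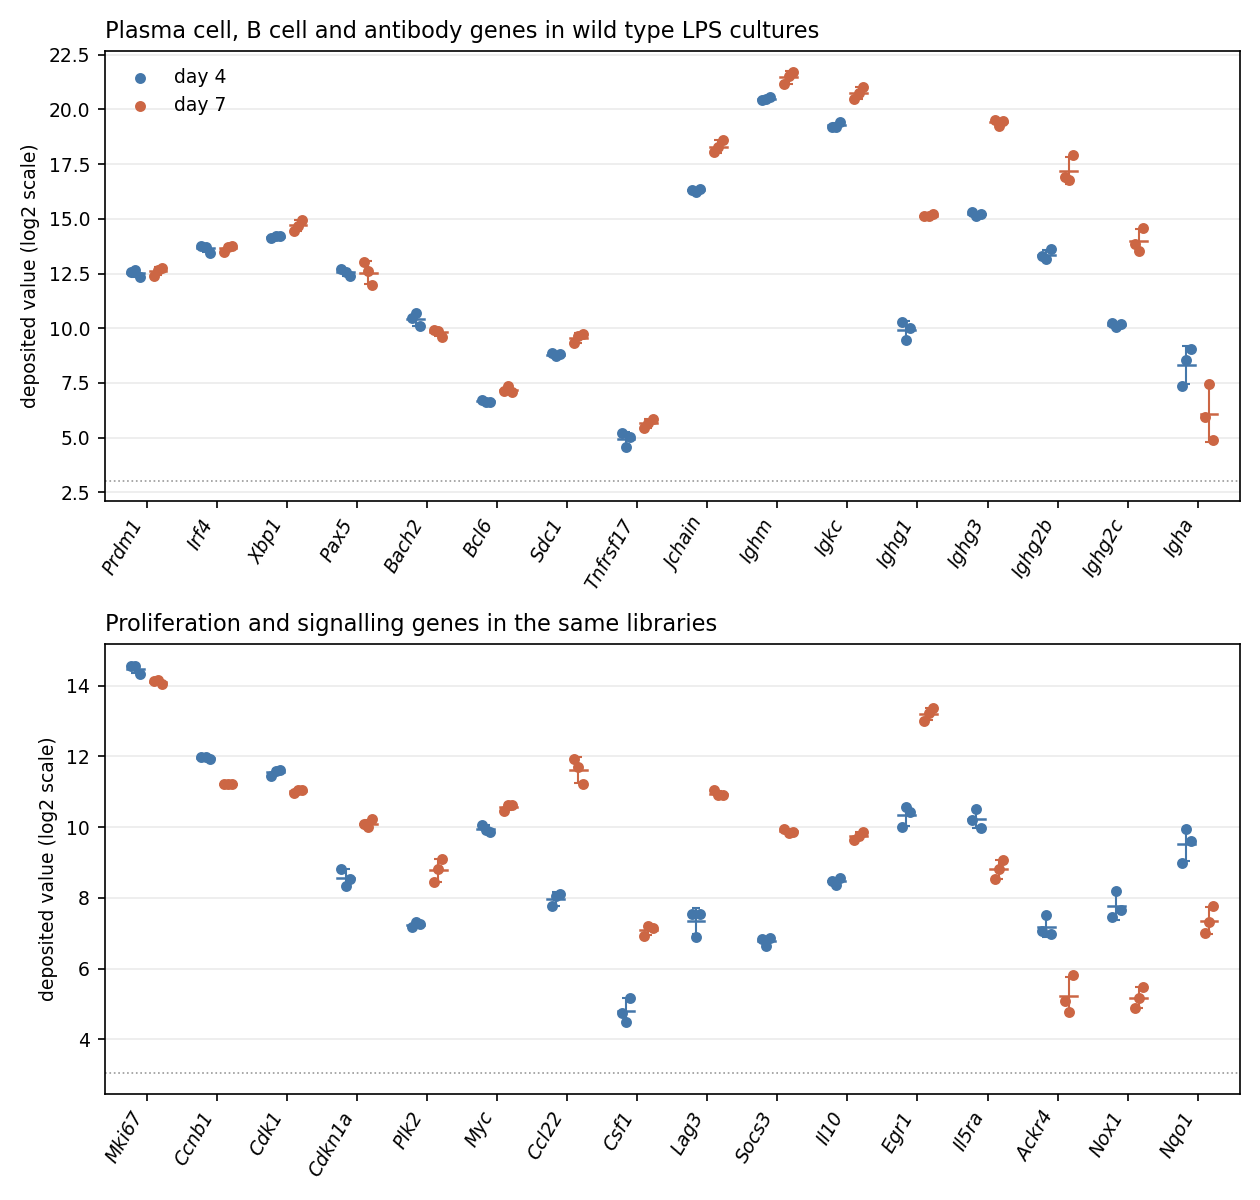
Deposited values (log2 scale) of 32 genes in each of the 6 wild type LPS libraries: points are libraries, bars the mean and its SD (n = 3), and the dotted line is 3.04, the value of no reads. The 4 IgG genes, Ccl22, Lag3 and Egr1 are separated by a wide gap between days, while Prdm1, Irf4 and Pax5 overlap.

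Of 30 plasma cell identity genes tested, 9 passed as higher and none as lower, with a median of 0.66, and 26 were above 0. Of all 20279 genes 4.76% passed as higher, and 9869 were above 0. Jchain, which joins the subunits of secreted IgM and IgA, read 16.3, 16.22 and 16.37 at day 4 and 18.03, 18.26 and 18.61 at day 7 (2 ± 0.41, adjusted p 0.00175). The day 7 libraries all lay above the day 4 libraries. The call was lost with quantile normalisation and in a fit of these 6 libraries alone, and over the 17 alternatives the difference ran down to 0.853. Prg2 rose by 2.55 ± 0.33, Slpi, a secreted protease inhibitor, by 2.08 ± 0.46 and Tmem176b by 2 ± 0.35. Over the alternatives the count of members that passed ran from 4 to 13. It fell to 4 without day 4 replicate 2 or without day 7 replicate 3, to 6 with quantile normalisation and to 5 with scaling to total reads.

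Prdm1, the master regulator of plasma cells, read 12.55, 12.68 and 12.34 at day 4 and 12.4, 12.66 and 12.77 at day 7, and its difference of 0.09 ± 0.28 did not pass (adjusted p 0.944). Irf4 differed by 0.01 ± 0.18 (adjusted p 1). The days overlapped for both genes, and their small differences changed sign with the scaling. Xbp1 (0.52 ± 0.17, adjusted p 0.0518) and Sdc1, the surface marker CD138 (0.76 ± 0.29, adjusted p 0.109), did not pass. Both were higher in every day 7 library than in any day 4 library, which held for 17.2% of all genes tested. Xbp1 passed in 4 of the 17 alternatives and Sdc1 in 2. Tnfrsf17, the receptor BCMA, differed by 0.72 ± 0.38 (adjusted p 0.288).

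Prdm1 was already abundant at day 4 in the LPS culture. Its mean there was 12.52 ± 0.17 (SD, n = 3), against 6.5 ± 0.47 in B cells before culture, 9.78 ± 0.11 in TLR and 9.74 ± 0.46 in BCR cultures at day 4. At day 7 the means were 12.61 ± 0.19 in LPS, 13.19 ± 0.21 in TLR and 12.46 ± 0.12 in BCR cultures. Jchain followed the same order at day 4, with 16.3 ± 0.075 in LPS, 12.27 ± 0.28 in TLR and 11.7 ± 0.73 in BCR cultures.

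Of 26 fate transcription factors, 2 passed as higher and 3 as lower, with a median of 0.03, against 4.76% and 3.68% of all genes. Ets1, a factor that holds back plasma cell formation, read 12.25, 12.41 and 12.12 and then 11.24, 11.52 and 11.38 (-0.88 ± 0.13, adjusted p 4.68e-05). Bach2, the repressor of Prdm1, fell by 0.61 ± 0.16 on the log2 scale (-0.61, adjusted p 0.0127), with 10.46, 10.69 and 10.1 at day 4 and 9.93, 9.89 and 9.6 at day 7. Ikzf3, the lymphoid factor Aiolos, fell by 0.55 ± 0.11 (-0.55). Pax5 differed by -0.01 ± 0.21, with 12.69, 12.58 and 12.38 and then 13.02, 12.61 and 11.99, so the day 7 libraries spread on both sides of day 4.

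Against the direction of Ets1 and Bach2, both passing rises were in genes that Blimp-1 is known to repress. Bcl6, the regulator of the germinal centre, rose by 0.54 ± 0.16 (adjusted p 0.027) and Myc, the growth regulator, by 0.63 ± 0.18 (adjusted p 0.0225). The call of Bcl6 was lost in 8 of 17 alternatives and that of Myc in 5. Myc read 10.06, 9.93 and 9.86 at day 4 and 10.47, 10.64 and 10.64 at day 7, with no overlap. Of 25 mature B cell identity genes only Cxcr5, the follicle homing receptor, passed, and it was lower (-0.57 ± 0.13, adjusted p 0.00514). Among all genes 3.68% passed as lower. H2-Aa, an MHC class II chain, differed by -0.05 and did not pass.

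Immediate early genes gave the highest share of passing members of all 32 lists. Sequences from RefSeq (GRCm38.p6) are shown first for promoter elements of genes in 3 of the lists, each in 60 bases before a start site that overlap no annotated exon, 5′ to 3′ on the gene's strand, with the matched element in capitals. The Egr2 stretch carries a CArG box, the site of serum response factor, and was chosen after its values were seen. The Chac1 and Atf3 stretches carry the amino acid response element TGATGNAAN, read on the opposite strand, and the Pycr1 stretch carries it on the gene's strand. The Aurka stretch carries 2 CCAAT boxes, found before genes of the cell division cycle and of other lists.
Egr2 (chr10:67537772-67537831, plus strand): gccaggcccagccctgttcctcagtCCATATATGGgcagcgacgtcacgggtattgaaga
Chac1 (chr2:119351023-119351082, plus strand): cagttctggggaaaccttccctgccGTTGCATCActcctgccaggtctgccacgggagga
Atf3 (chr1:191183410-191183469, minus strand): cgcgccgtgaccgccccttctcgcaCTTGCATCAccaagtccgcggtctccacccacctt
Pycr1 (chr11:120643817-120643876, minus strand): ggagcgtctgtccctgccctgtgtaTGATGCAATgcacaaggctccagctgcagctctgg
Aurka (chr2:172370571-172370630, minus strand): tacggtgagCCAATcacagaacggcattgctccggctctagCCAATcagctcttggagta

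Over the 250 bases before the start, searched on both strands, CArG boxes were found for 2 of the 17 immediate early genes with a promoter in the table (11.8%), against 1.62% of all 27025 genes. The amino acid response element was found for 7 of 23 genes of the ATF4 and CHOP stress response (30.4%), against 3.89% of all. CCAAT was found for 20 of 26 cell division genes (76.9%), against 37.5% of all, and the cell cycle element TTTGAA for 8 of 26 (30.8%), against 18.3%. CCAAT was not particular to that list. It was found for 93.3% of cholesterol synthesis, 77.4% of ER and 60.9% of ATF4 and CHOP genes. Its share was 35% in interferon-stimulated, 29.4% in immediate early and 22.2% in MYC list genes. The ER stress element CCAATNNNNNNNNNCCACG, which contains the CCAAT letters, was found for 9 of 31 ER genes (29%), against 0.13% of all. The core of the interferon-stimulated response element was found for 10 of 20 interferon-stimulated genes (50%), against 3.46% of all. CACGTG, the E-box of MYC, was found for 2 of 18 genes of the MYC list (11.1%), against 6.86% of all. It was more frequent in immediate early (29.4%), cholesterol synthesis (26.7%) and ER genes (19.4%). It was less frequent in ATF4 and CHOP (8.7%), cell division (3.85%) and interferon-stimulated genes (0%). A form of the sterol response element was found for none of 15 cholesterol synthesis genes, against 0.226% of all. These are matches of letters and describe no binding.

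Of 21 immediate early genes 16 passed as higher and none as lower, and all 21 differences were above 0, with a median of 1.24. Of all 20279 genes 4.76% passed as higher, and 9869 were above 0. Egr1, a zinc finger factor, read 10, 10.57 and 10.44 at day 4 and 13.01, 13.22 and 13.36 at day 7 (2.86 ± 0.38, adjusted p 1.11e-05). Egr3 read 7.72, 7.4 and 7 and then 9.86, 10.2 and 10.12 (2.69 ± 0.20). Egr2 read 7, 7.15 and 7.15 and then 9.13, 9.41 and 9.48 (2.24 ± 0.17, adjusted p 3.65e-10). The 3 day 7 libraries lay above the 3 day 4 libraries for each of these genes.

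Other members passed as well. Ier2 rose by 2.33 ± 0.34, Fosb by 2.3 ± 0.57, Junb by 2.15 ± 0.52, Fos by 2.06 ± 0.43 and Jun by 1.24 ± 0.26. Zfp36, which destabilises cytokine mRNAs, rose by 1.2 ± 0.17, and Dusp1, a phosphatase of MAP kinases, by 1.4 ± 0.19. The count of passing members ran from 14 to 17 over the 17 alternatives. Summed over the list, the level was 9534 to 10674 normalised reads at day 4, 28079 to 38423 at day 7, and 69425 to 101968 in the day 0 B cells, which came from males and younger mice.

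**Figure D2:**
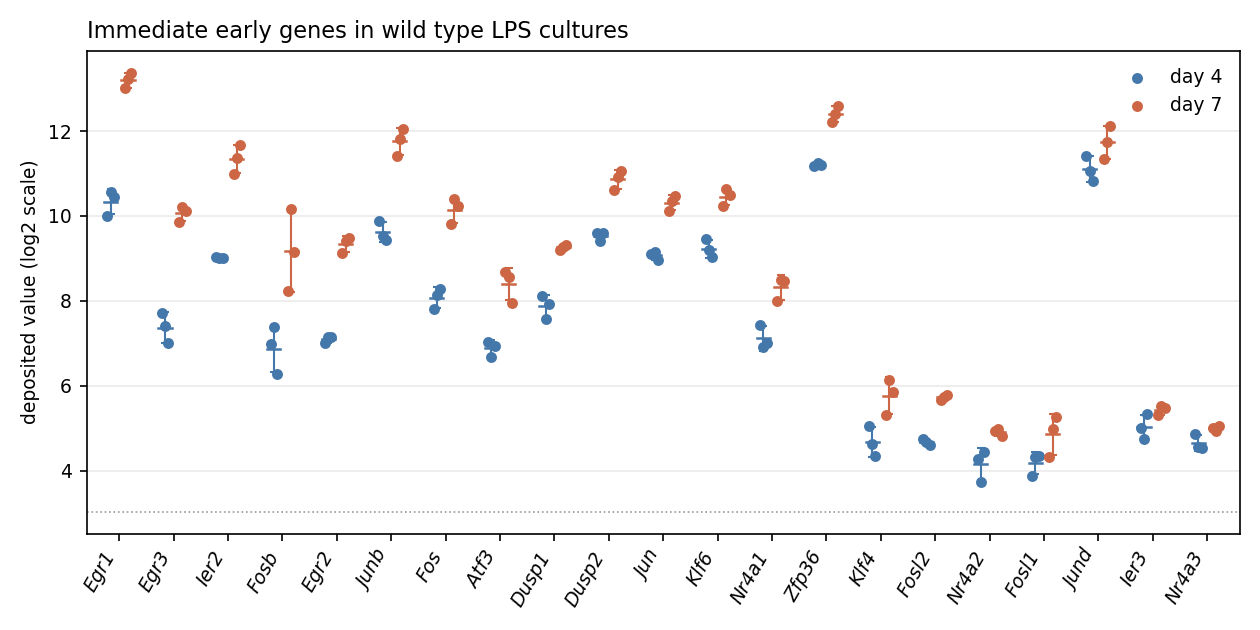
Deposited values (log2 scale) of the 21 immediate early genes in the 6 wild type LPS libraries, ordered by their difference, with the mean and SD of 3 libraries a day. Every gene has a higher mean at day 7, from Egr1 (2.86) down to Nr4a3 (0.35).

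Several of the largest rises were in genes of chemokines, cytokines and receptors. Ccl22, the chemokine ligand of Ccr4, read 7.76, 8.05 and 8.11 at day 4 and 11.94, 11.7 and 11.23 at day 7 (3.65 ± 0.24, adjusted p 2.73e-11). Lag3, an inhibitory receptor also found on some antibody-secreting cells, read 7.56, 6.91 and 7.55 and then 11.04, 10.9 and 10.9 (3.61 ± 0.35). Socs3, a feedback inhibitor of cytokine receptors, rose by 3.1 ± 0.30. Neither set of 3 values touched the other for these genes. Csf1, the macrophage growth factor, rose by 2.29 ± 0.25 and Osgin1 by 3.36 ± 0.42.

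Of 22 cytokine and chemokine genes 6 passed as higher and none as lower, with a median of 0.45. Without day 4 replicate 1 or 2, with voom or in a fit of these 6 libraries alone, 3 passed. Il10 read 8.49, 8.38 and 8.56 and then 9.65, 9.75 and 9.87 (1.28 ± 0.24, adjusted p 0.000554), and Ebi3, a subunit of IL-27 and IL-35, rose by 1.54 ± 0.30. Ccl5 rose by 1.05 ± 0.30, a call lost in 8 of 17 alternatives. Among 21 NF-kB targets 5 passed as higher and 1 as lower, and 3 as higher without day 4 replicate 1 or 2. The lower member was Tnfaip3, an inhibitor of NF-kB signalling (-0.75 ± 0.14, adjusted p 0.000616). Of 26 interferon-stimulated genes 3 passed as higher, against 4.76% of all genes. Among them were Gbp2 (1.34 ± 0.20) and Zbp1 (0.93 ± 0.23). That count was 6 without day 7 replicate 3 and 8 with GC content and length corrected.

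Some markers of myeloid cells rose as well. Of 23 markers tested 5 passed as higher and none as lower, against 4.76% and 3.68% of all genes. The summed level of the markers was 4656 to 5297 normalised reads at day 4 and 10222 to 14259 at day 7. The count of calls was 3 without day 4 replicate 1 or 2 or day 7 replicate 1 or 2, and 2 with scaling to total reads. Adgre1, a surface marker of macrophages, read 6.95, 7.33 and 7.17 and then 9.53, 9.21 and 8.65 (1.98 ± 0.33). Marco read 3.04, 4.41 and 3.04 at day 4 and 8.1, 8.87 and 3.04 at day 7, so 1 day 7 library was at the value of no reads. Lyz2, not named by the rule, showed the same division, with 4.11, 6.64 and 4.12 and then 9.33, 10.5 and 3.67, and did not pass (2.88 ± 1.37, adjusted p 0.22). Of the 23 markers, 16 differences were above 0 and 4 below, while 7 markers were at 0 in all day 4 libraries and 5 in all day 7 libraries. Elane, Mpo and S100a9 were at 0 in all 6 libraries. C1qa and Cd163 were at 0 throughout day 7 but not throughout day 4. C1qc, Fcgr1, Ly6g and S100a8 were at 0 throughout day 4 but not throughout day 7. The day 7 library without Marco reads was replicate 3. Adgre1 (8.65) and Ccl22 (11.23) were lower there than in the other day 7 libraries, but above every day 4 library. Csf1 read 7.16 there, against 6.92 and 7.21 in the other day 7 libraries. The part of myeloid cells in these rises was not tested.

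Fewer or more cells of a type and less or more RNA per cell cannot be told apart in bulk samples. T and NK cell markers summed to 364 to 417 normalised reads at day 4 and 537 to 567 at day 7. Of 21, 2 passed as higher: Cd3g (2.04 ± 0.305) and Cd5 (0.76 ± 0.24), the latter lost in 12 of 17 alternatives. Of the 21, 13 were at 0 in all day 4 libraries and 5 in all day 7 libraries. Cd8a, Gzma, Klrb1c, Klrd1 and Ncr1 were at 0 in all 6 libraries. Cd3e, Cd8b1, Gata3, Gzmb, Nkg7, Thy1, Trbc1 and Trbc2 were at 0 throughout day 4 but not throughout day 7. Dendritic cell markers gave 1 lower call of 11, Ccr9, and erythroid and platelet markers 1 higher call of 11, Itga2b. No call was made among 7 mast cell and 11 fibroblast markers. Over all genes 4.76% passed as higher and 3.68% as lower. The part of other cells in the rises above was not tested.

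Of 32 cell division genes 12 passed as lower, none as higher and 20 did not pass. All 32 differences were below 0, with a median of -0.5. Of all 20279 genes 3.68% passed as lower, and 9554 were below 0. Ccnb1, which triggers mitosis with Cdk1, read 11.98, 11.99 and 11.94 at day 4 and 11.21, 11.23 and 11.23 at day 7 (-0.75 ± 0.13, adjusted p 0.000295). Cdc6, which licenses replication origins, differed by -0.70 ± 0.13 and Cdk1 by -0.54 ± 0.09, and both passed. Mki67 read 14.55, 14.57 and 14.34 and then 14.12, 14.17 and 14.06, without overlap, and did not pass (-0.37 ± 0.21, adjusted p 0.342). Such a gap with day 7 lower held for 16.8% of all genes tested. The count of passing members ran from 7 to 27 over the alternatives. It was 7 without day 4 replicate 2 or 3 or without day 7 replicate 3, 25 in a fit of these 6 libraries alone, 23 with correction for GC content and length and 27 with scaling to total reads.

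Of 20 p53 target genes 8 passed as higher and none as lower, with a median of 0.62. Cdkn1a, the cell cycle inhibitor p21, read 8.83, 8.33 and 8.54 and then 10.08, 10 and 10.22 (1.53 ± 0.22, adjusted p 2.46e-05). Plk2 rose by 1.53 ± 0.21, Phlda3 by 1.2 ± 0.34 and Eda2r by 0.97 ± 0.28. The count ran from 4 to 12 over the alternatives, with 4 without day 4 replicate 2, 5 without day 4 replicate 1, day 7 replicate 1 or day 7 replicate 3, and 12 in a fit of these 6 libraries alone. In the BCL2 family only Bcl2l11, which encodes the death-promoting protein Bim, passed of 15 tested (0.94 ± 0.13, adjusted p 1.49e-05). Among all genes 4.76% passed as higher.

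In the ATF4 and CHOP stress response list 6 of 25 passed as higher and 2 as lower, against 4.76% and 3.68% of all genes. The count of higher members was 3 without day 4 replicate 1 or 2 or day 7 replicate 2 or 3. Chac1, a glutathione-degrading enzyme, rose by 1.83 ± 0.32, Atf3 by 1.51 ± 0.32, Slc3a2, a subunit of amino acid transporters, by 1.41 ± 0.22 and Ppp1r15a by 1.27 ± 0.35. The lower members were Psat1, an enzyme of serine synthesis (-0.66 ± 0.10), and the amino acid transporter Slc7a3 (-0.67 ± 0.21), whose call was lost in 10 of 17 alternatives. Of 40 genes of ER folding, export and degradation, 4 passed as higher with a median of 0.23: Herpud1 (0.67), Dnajc3 (0.57), Edem1 (0.55) and Dnajb11 (0.45), the last lost in 11 of 17 alternatives. Scaling to total reads made this none higher and 3 lower, and 1 passed as higher without any 1 of the day 4 libraries or without day 7 replicate 3. Without day 7 replicate 2 it was 2. Hspa5, the chaperone BiP, differed by 0.57 ± 0.20 and did not pass (adjusted p 0.0664).

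Of 26 lysosome and autophagy genes 6 passed as higher, led by Ctsa, a lysosomal carboxypeptidase (1.08 ± 0.27), and none did with scaling to total reads. It was 2 without day 4 replicate 1 or 2, 1 without day 7 replicate 3 and 12 in a fit of these 6 libraries alone. All 23 cholesterol synthesis genes were below 0 and 6 passed as lower, among them Hsd17b7 (-0.77 ± 0.20) and Hmgcs1 (-0.57 ± 0.17), enzymes of the pathway. That count ran from 0, without day 4 replicate 1, to 13. Without day 7 replicate 3 it was 1, without day 7 replicate 2 it was 2 and without day 4 replicate 2 it was 3. Of 19 glycolysis genes 2 passed as lower, Pgk1 (-0.55 ± 0.14) and Pfkp (-0.53 ± 0.11). It was 1 without day 4 replicate 3, day 7 replicate 2 or day 7 replicate 3, when the call of Pgk1 was lost, and 6 in a fit of these 6 libraries alone. In 13 mitochondrially encoded genes 2 passed as higher, mt-Atp6 (1.85 ± 0.59) and mt-Nd3 (1.28 ± 0.39). Both calls were lost in at least 7 of 17 alternatives. Over all genes 4.76% passed as higher and 3.68% as lower, and 9554 of 20279 differences were below 0.

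**Figure D3:**
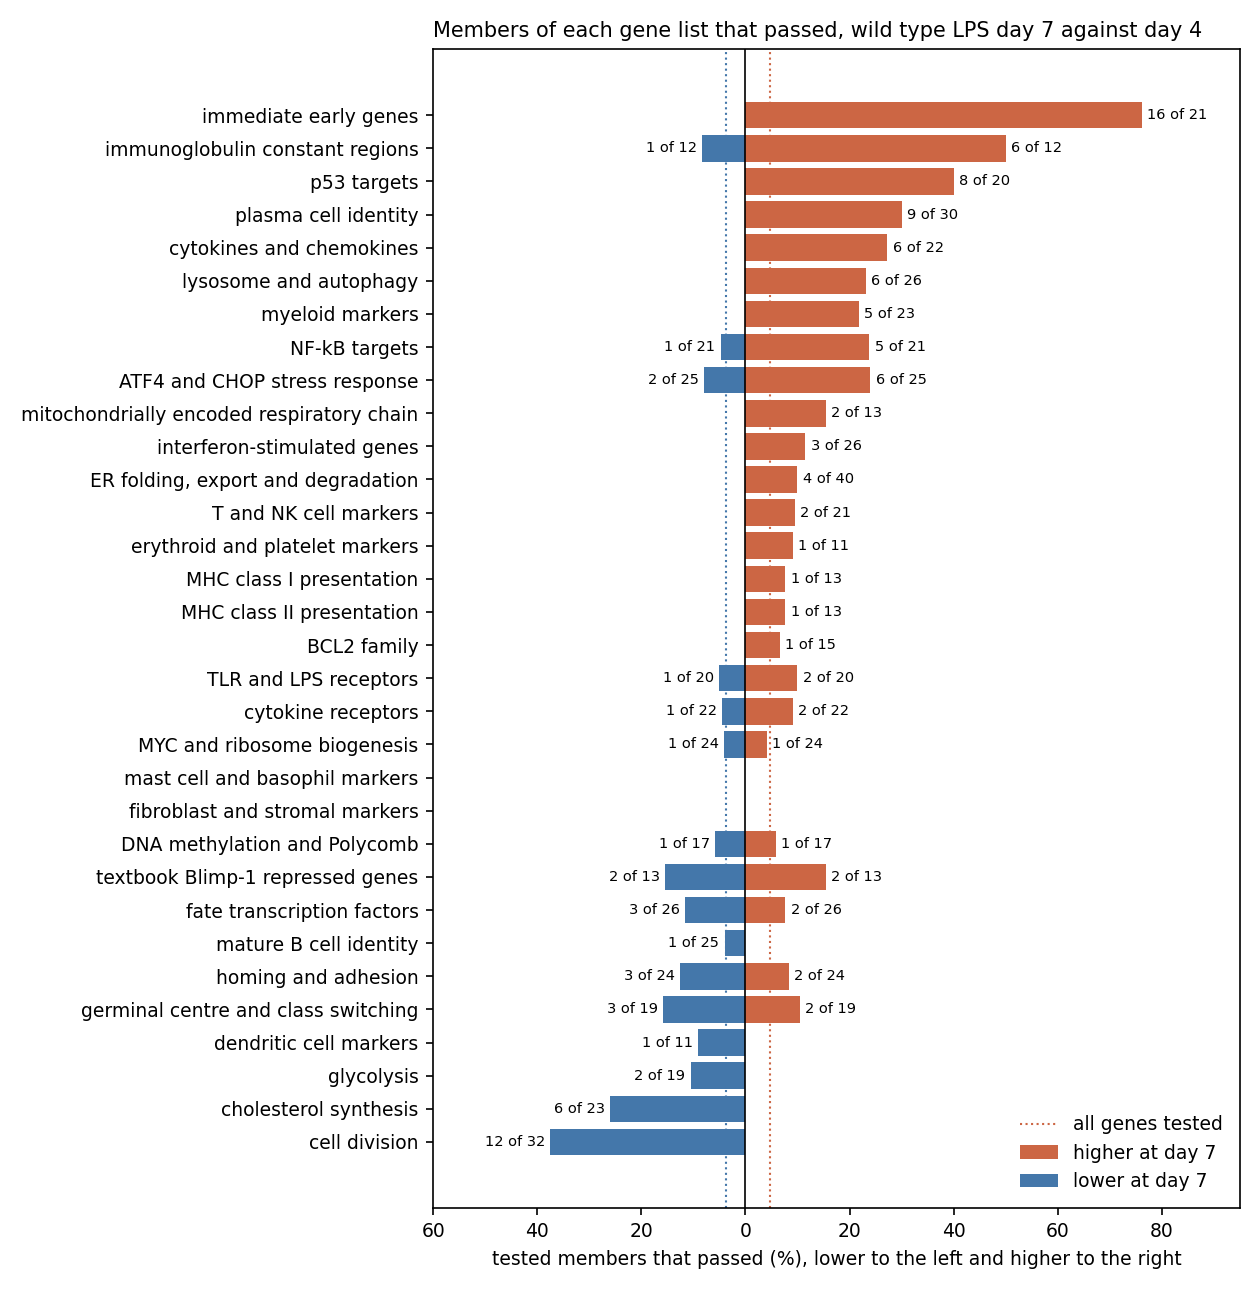
Share of tested members (percent) that passed as higher (right) or lower (left) at day 7 in each of the 32 gene lists, with the counts beside the bars. Dotted lines mark the shares over all genes tested, 4.76% higher and 3.68% lower, and the lists run from immediate early genes (16 of 21 higher) to cell division (12 of 32 lower).

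Over all genes 4.76% passed as higher and 3.68% as lower, the shares to set beside the counts of the lists that follow. Of 22 cytokine receptor genes 2 passed as higher and 1 as lower. Il5ra, the IL-5 receptor chain, read 10.21, 10.51 and 9.98 and then 8.54, 8.83 and 9.08 (-1.42 ± 0.24, adjusted p 0.000271). Il13ra1 rose by 1.42 ± 0.27 and Il2rg, the common gamma chain, by 0.7 ± 0.11. Of 24 homing and adhesion genes 2 passed as higher and 3 as lower, and none as higher without day 4 replicate 2 or day 7 replicate 2. Ccr9, the gut homing receptor, differed by -1.90 ± 0.28 and passed as lower, while Ccr10 and Gpr183 rose by 0.9 and 0.55, the former lost in 12 of 17 alternatives. Of 19 germinal centre and class switching genes 2 passed as higher and 3 as lower. Mybl1, a factor of germinal centre B cells, and Rgs13 were among the lower (-1.63 ± 0.34 and -1.45 ± 0.33). The higher members were Fas, a death receptor (0.88 ± 0.21), and Basp1 (0.84 ± 0.25), a call lost in 10 of 17 alternatives. Of 20 genes of Toll-like receptors and their signalling 2 passed as higher and 1 as lower. Irak1 and Irak4, kinases of that pathway, were the higher members (0.36 ± 0.09 and 0.34 ± 0.09) and Irak3, their inhibitor, the lower (-0.51 ± 0.14). With scaling to total reads none passed as higher, and 1 did without any 1 library other than day 4 replicate 3. The call of Irak3 was lost without day 4 replicate 1 or 2 or day 7 replicate 3.

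Of 13 MHC class II genes and 13 MHC class I genes 1 each passed, as higher. In lists of this size 1 call is near the shares of all genes, 4.76% higher and 3.68% lower. Ctss, a protease of class II presentation, rose by 0.71 ± 0.12, and B2m, the class I light chain, by 0.62 ± 0.19, a call lost in 9 of 17 alternatives. Of 17 DNA methylation and Polycomb genes 1 passed in each direction. Jarid2, a Polycomb cofactor, rose by 0.57 ± 0.11 and Uhrf1, which maintains DNA methylation, fell by 0.68 ± 0.18, a call lost without day 4 replicate 1 or day 7 replicate 3. In the MYC and ribosome biogenesis list 1 of 24 passed in each direction, Myc and Wdr12 (-0.40 ± 0.12). None passed as lower without any 1 of the day 4 libraries or without day 7 replicate 2 or 3, and 8 did with scaling to total reads. None passed as higher without day 4 replicate 2 or 3 or day 7 replicate 2 or 3. Of 13 textbook genes repressed by Blimp-1, 2 passed as higher (Myc and Bcl6) and 2 as lower (Ets1 and Cxcr5). None passed as higher without day 4 replicate 2 or 3 or day 7 replicate 2, and 1 did without day 7 replicate 1 or 3.

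Among protein-coding genes that met the level set for naming, Nox1, the catalytic subunit of an NADPH oxidase, had the largest fall, and it read 7.46, 8.21 and 7.66 at day 4 and 4.88, 5.18 and 5.49 at day 7 (-2.59 ± 0.27, adjusted p 1.4e-07). Map2 (-2.32 ± 0.37), Ehf (-2.17 ± 0.42) and Nqo1, a quinone reductase (-2.16 ± 0.32), passed as well. Each of these genes was lower in all 3 day 7 libraries than in any day 4 library.

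The step from day 4 to day 7 was smaller in the LPS culture than in the others. The median size of the difference over all genes was 0.22 in LPS, 0.47 in TLR, 0.42 in BCR and 0.39 in dEx1A LPS cultures, and 43.1%, 37.9% and 34.2% of genes passed in the last 3. In the TLR step 19.9% passed as higher and 23.3% as lower. Of the 965 LPS rises, 521 (54%) also passed as higher in TLR, which is 12.9% of the TLR rises, and 129 passed as lower. Of the 746 falls 378 (50.7%) also passed as lower in TLR, 8.02% of the TLR falls, and 95 passed as higher. Across the 20279 genes the LPS step correlated with the TLR step at Pearson r = 0.33 and with the dEx1A LPS step at 0.57. Genes are not independent replicates, and these are descriptions.

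The difference between the 2 wild type steps, LPS minus TLR, was fitted as an interaction. It passed for 27.3% of genes, 14.1% higher and 13.2% lower (2853 and 2684 genes). With scaling to total reads 6034 were higher and 1300 lower. Jchain rose less in LPS than in TLR (-5.88 ± 0.58, adjusted p 3.71e-09), and so did Ighm (-3.74 ± 0.42). Prdm1 differed by -3.32 (adjusted p 1.2e-07), Sdc1 by -2.94, Irf4 by -1.82 and Xbp1 by -1.71 between the steps. At day 4 the LPS mean of Sdc1 was 8.8 and the TLR mean 6.67, and those of Ighm were 20.48 and 17.18. The day 4 means of Irf4 were closer, 13.65 and 13.46, as were those of Xbp1, 14.18 and 13.97.

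Some genes passed in opposite directions in the LPS and TLR steps. Ccl22 rose by 3.65 in LPS and differed by -2.03 in TLR, a difference between steps of 5.68 ± 0.34 (adjusted p 1.84e-13). Its levels approached each other, from 7.97 in LPS and 14.98 in TLR at day 4 to 11.62 and 12.95 at day 7. Csf1 rose by 2.29 in LPS and differed by -2.72 in TLR, and its LPS mean went from 4.81 to 7.1 while the TLR mean went from 10.66 to 7.94. Ackr4, a scavenger receptor of chemokines, fell by 1.96 in LPS and differed by 2.87 in TLR. Igha was lower at day 7 in LPS and differed by 4.12 in TLR. Myc rose by 0.63 in LPS, against -1.98 in TLR, and Egr2 by 2.24, against -1.97.

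**Figure D4:**
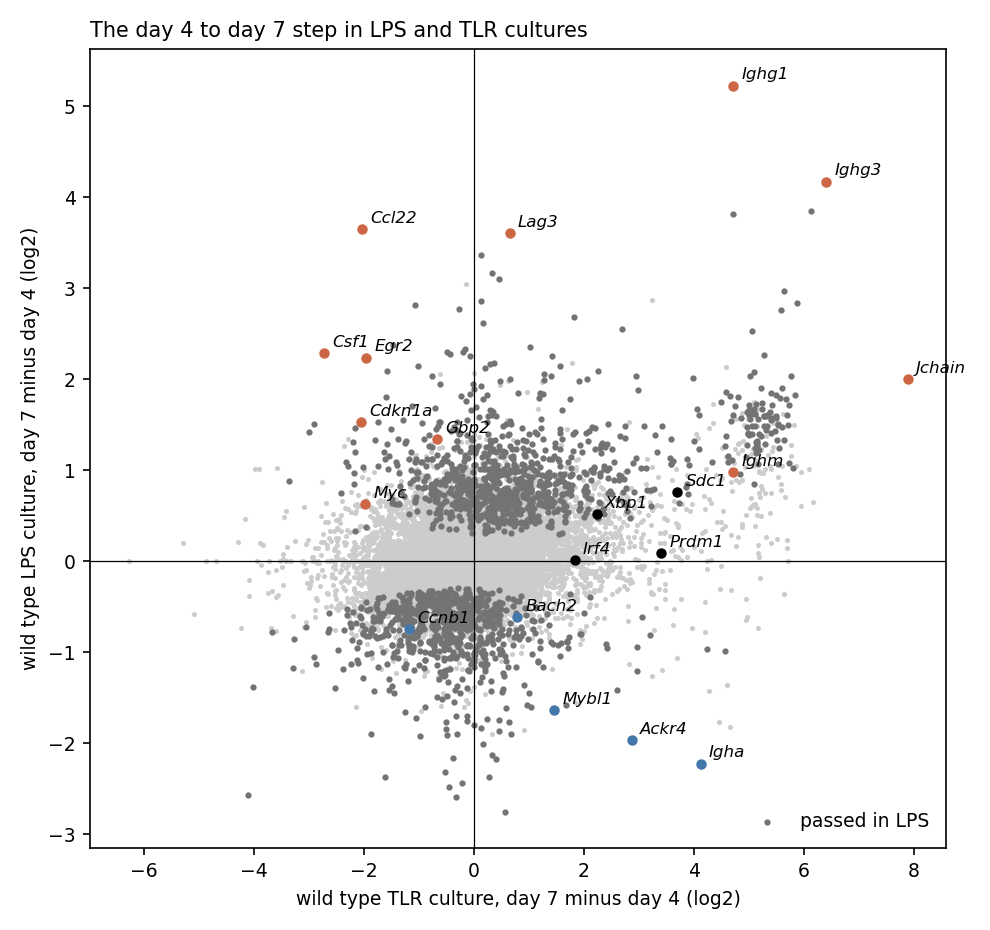
Day 7 minus day 4 (log2) of each gene in wild type LPS (vertical) against wild type TLR cultures (horizontal). Dark grey genes passed in LPS, named genes are orange where higher, blue where lower and black where they did not pass in LPS, and Jchain, Prdm1 and Ighm lie to the right because they moved more in TLR (Jchain 7.89 against 2).

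Wild type and dEx1A LPS steps were also set against each other, both from 9-week females. The difference passed for 5.49% of genes (443 or 2.18% higher and 671 or 3.31% lower in wild type), and for 1807 genes with correction for GC content and length. Without day 7 replicate 1 of the wild type it was 648. The dEx1A LPS libraries differed in GC offset between days (the median deviation of GC-rich genes less that of GC-poor genes), from -0.74 to 0.29 at day 4 and 0.69 to 1.08 at day 7. Wild type LPS libraries ran from 0.86 to 0.87 and 0.98 to 1.07, and the part of GC content in the difference was not tested beyond that correction.

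Several plasma cell genes had a larger step in dEx1A than in wild type cultures. Irf4 differed by -1.61 between the steps (adjusted p 0.00021), with 0.01 in wild type and 1.62 in dEx1A. Sdc1 differed by -3.05, Ighm by -2.51, Jchain by -2.36 and Xbp1 by -1.56. Prdm1 differed by 0.09 in wild type and 1.37 in dEx1A, and the difference between the steps did not pass (adjusted p 0.0523). Bach2 fell by 1.60 on the log2 scale in dEx1A (-1.60) and by 0.61 in wild type, a difference of 0.99. The day 4 means of Prdm1 were 12.52 in wild type and 9.85 in dEx1A, and those of Jchain 16.3 and 13.52. Of the immediate early genes named above, Egr1 differed by 3.07, Fosb by 3.82 and Ier2 by 3.45 in the dEx1A step.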

How the data were processed

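RNA of mouse splenic B cells was sequenced with a stranded total RNA kit as single reads of 76 bases, per the labels' protocols. Deposited values are on a log2 scale: the authors applied variance stabilisation to gene-level RSEM output, as the file name records. Per the submitters' processing notes, reads passed through STAR 2.6.0c and RSEM 1.3.0, and DESeq2 1.22.2 in R 3.5.1, Trim Galore 0.6.0 and FastQC 0.11.8 were also used. The builds named are GRCh38.p12, GRCm38.p6 and mm10, with no role given. The strand setting of the counting is not given, nor is its annotation, so a gene and its antisense partner cannot be told apart.

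The table used has 28196 genes and 39 libraries. Cnksr3 was left out because 1 cell held 0, below the floor. Symbols and gene types were those of the deposited table. Coordinates, lengths and GC content came from GENCODE M21, joined by Ensembl identifier (28186 matched). Reads were recovered by inverting the transformation at a floor of 3.045: under 20 reads, 95.4 to 100% of values per library were whole within 0.1. Genes had to lie at least 1 above the floor in at least 3 libraries (20279 genes). Group means over all 39 libraries were fitted with limma 3.58.1 in R 4.3.3 (26 residual degrees of freedom, moderation with a trend), and steps were compared as interactions. No pair of same-day libraries was a copy. On simulated counts for this comparison (20279 genes, 200 changed), 74% of 2-fold and 98% of 4-fold changes were recovered, and 22 unchanged genes were called, 15 of them under 10 normalised reads.

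The groups, lists and tests were chosen with earlier results of these data known. Named genes were the 15 largest rises and 15 largest falls among passing protein-coding genes with no overlap between days and a higher mean at least 4 above the floor, the core regulators, and up to 4 passing members of each list with those opposite to it. Immunoglobulin constant genes were counted as protein-coding, and variable segments left out. Some genes that the rule names are not reported here. Egr2, Junb, Fos, Jun, Zfp36, Dusp1, Igkc, Ighd, Ighe, Lyz2, Elane, Mpo, S100a9, Pycr1, Nr4a3 and markers listed at 0 were chosen after their values were seen. The CArG motif was added then as well. Alternatives were other normalisations, filters, fits, a replicate block, correction for GC content and length, and leaving out each library.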

Additional observations from a re-analysis of the deposited data

Results flagged for a closer look

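The following genes are listed because the step from day 4 to day 7 differed between cultures in a limma interaction test. LPS minus TLR, the differences were -5.88 for Jchain, -3.74 for Ighm, -3.45 for Tnfrsf17, -3.32 for Prdm1, -2.94 for Sdc1, -1.82 for Irf4, -1.71 for Xbp1 and -0.89 for Hspa5, genes with a larger rise in TLR cultures. Some of the core regulators and of the largest rises and falls passed in opposite directions in the 2 steps. They were Ccl22 (5.68), Csf1 (5.01), Ackr4 (-4.84), Mybl1 (-3.09), Myc (2.62) and Bach2 (-1.4). Over all genes 129 LPS rises and 95 LPS falls passed in the opposite direction in TLR.

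Wild type LPS minus dEx1A LPS, the differences were -3.05 for Sdc1, -2.51 for Ighm, -2.36 for Jchain, -1.61 for Irf4, -1.56 for Xbp1 and -1.1 for Myc. They were 1.09 for Bcl6 and 0.99 for Bach2. The wild type TLR and LPS cultures also differ in sex, age, library depth and GC offset, and these cannot be told apart from the culture.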

How the results depend on the processing

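The LPS step gave 1711 calls. It gave 3316 with scaling to total reads, 3150 with GC content and length corrected (1700 higher, 1450 lower) and 1264 with voom (770 and 494). A fit of the 6 LPS libraries alone gave 2517 (1226 and 1291, of which 1133 were among the 1711), and quantile normalisation 798 and 819. Leaving out 1 library gave 1022 to 1438, lowest without day 4 replicate 2 (1022) and day 7 replicate 3 (1076). The wild type minus dEx1A difference gave 1114, 1807 with GC content and length corrected, and 648 to 1170 without 1 library. Without 1 library the LPS minus TLR difference gave 4836 to 5235 and the LPS minus BCR difference 3789 to 4103. With GC content and length corrected these 2 differences gave 7455 and 6261, against 5537 and 4406 in the main fit. Of 102 named genes that passed, 54 kept their call and direction in all 17 alternatives, 48 lost it in at least 1 and none reversed.

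Values that changed sign had not passed: Pax5 (0.002 with voom, 0.019 with GC content and length corrected, -0.25 to 0.265 without 1 library), Prdm1 (-0.225 with total reads, -0.052 with quantile normalisation, -0.005 to 0.192 without 1 library), Irf4 (-0.302, -0.179, and -0.088 to 0.088 without 1 library) and H2-Aa (-0.085 to 0.005 without 1 library). LPS minus TLR, Bcl6 was 0.133 with total reads and H2-Aa 0.209, and 0.148 with quantile normalisation. The cause was not tested. A fit with the replicate number as a block gave 1651 calls (950 higher, 701 lower), 1550 of them shared. The numbers did not pair the libraries: same-numbered deviations correlated at -0.001, 0.048 and 0.042. Of the calls, 10.2% of the higher and 9.79% of the lower had means under 10 normalised reads at both days, where depth limits them most.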
